A study of Saccharomyces cerevisiae with 109 samples.

Results

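The 37 genes described here make histidine, the branched-chain amino acids, lysine and the aromatic amino acids in budding yeast, or regulate their making. They were taken from a list of gene symbols, and each was matched to the coding transcript of its locus, so that all 37 were found among the 5876 nuclear protein-coding genes of Saccharomyces cerevisiae in the data. The list holds 6 histidine genes, 10 branched-chain genes, 7 lysine genes, 11 aromatic genes and 3 transcription activators. Arginine and sulfur amino acid genes are not in it, and neither are the biosynthetic genes that are mutant markers in this strain, such as HIS3, LEU2 and TRP1. The rule for the list uses no measured value, and all 37 genes passed the filter on low counts in every comparison.

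The cells were haploid W303 yeast of mating type a, carrying the alleles ade2-1, can1-100, ura3-1, trp1∆2, leu2-3_112 and his3-11_15 in every group. The medium was synthetic, with glucose and a supplement mix that contains amino acids, so amino acids were supplied in every group. Cultures were kept at 1 °C, at 5 °C or at 30 °C, either with no added glutathione (low GSH) or, in the cold only, with 250 µM added reduced glutathione (high GSH). The 109 libraries comprise 15 of steady-state mRNA (3 for each of the 5 conditions) and 94 of mRNA labelled with 4-thiouracil, a uracil analogue that cells build into RNA made after its addition, taken at 0 to 96 h in the cold and at 0 to 20 min at 30 °C. Each group had 3 libraries apart from 2 groups of 2 libraries, the 5 °C high-GSH samples labelled for 3 h and for 12 h. The study describes its replicates as started from separate colonies on separate days, while the labels of these libraries give a replicate number only. The p-values measure the spread between these libraries.

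Between 7791032 and 32634257 reads per steady-state library and between 8267811 and 47877835 per cold labelled library after 0 h were assigned to nuclear protein-coding genes, and the 30 °C libraries at 20 min had 14377526 to 24823193. The steady-state libraries at 5 °C were the shallowest, with 7791032 to 9331234. Those at 1 °C had 16335132 to 28577718 and those at 30 °C 13821151 to 32634257. The part of depth in the differences between temperatures was not tested. The 0 h libraries and those at 5 and 10 min at 30 °C reached as few as 8368 such reads and enter no comparison. The mating type a genes STE2, MFA1 and MFA2 were at 150.1 to 244, 65.6 to 572 and 1154 to 3685 mRNA TPM in the 15 steady-state libraries. Of the genes of the other mating type, STE3 was at 0.895 to 14.7, MF(ALPHA)2 at 0 to 28.8 and MF(ALPHA)1 at 0.342 to 152, so the last of these overlapped MFA1. At 30 °C, replicate 3 stood farthest from the other 2 libraries for 19 of the 37 genes in steady-state mRNA and for 22 in labelled mRNA at 20 min. Without it, the counts for 1 °C against 30 °C in steady-state mRNA stayed at 4 higher and 32 lower, and those for 5 °C became 16 higher and 17 lower, with BAT1, ILV6, ARO1 and ILV5 called in addition (calls are defined further on). In new mRNA the counts without it were 3 higher and 29 lower at 1 °C and 14 higher and 3 lower at 5 °C. Other low-GSH groups also had 1 library that was often farthest. It was replicate 1 for 19 genes at 5 °C, 1.5 h, and replicate 3 for 18 at 1 °C, 6 h, and for 16 in 1 °C steady-state mRNA.

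Yeast makes amino acids through pathways whose genes share a transcription activator, Gcn4. When amino acids run short, translation of the GCN4 mRNA rises through short upstream reading frames in its leader, and Gcn4 then activates genes of many of these pathways, a response known as general amino acid control. Pathway-specific activators act beside it: Leu3 responds to an intermediate of leucine synthesis, and Lys14 to an intermediate of lysine synthesis. Because GCN4 is controlled mostly in translation, its mRNA level says little of its protein.

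The best-known Gcn4 site is TGACTCA, which reads TGAGTCA on the opposite strand. In the 500 bases before the start codon, 19 of the 37 genes (51.4%) held this 7-base word on either strand, against 240 of all 5876 genes (4.08%), and 23 (62.2%) held its 6-base core TGACTC, which the longer word contains, against 758 of all genes (12.9%). By pathway, the 7-base word was found before 7 of the 10 branched-chain genes, 4 of the 6 histidine genes, 4 of the 11 aromatic genes, 2 of the 7 lysine genes and 2 of the 3 activators. The windows below are printed 5′ to 3′ on the strand of the gene, with the word in capitals, for genes whose levels stand out further on. They come from the R64 genome, the build named for the deposited values.
HIS4: ccatgcacagTGACTCAcgttttttta
HIS1: agcttccaagTGAGTCAcctctaccgt
LEU4: tacgtgtaagTGACTCAgttctttcaa
LEU9: tcgtagtgaaTGACTCAtatttttcca
ILV6: accgttatcgTGACTCActttctttcg
LYS1: actaagtcgaTGAGTCAaaaaagactc
LYS14: ggacgcgacgTGACTCAattggaagaa
LEU3: caaagccataTGACTCAcaaccgtaaa
The HIS4 window is chrIII:68516-68542 (minus strand), with the word 193 to 199 bases before the start codon. For HIS1 it is chrV:265953-265979 (minus strand, 178 to 184 bases), and there the word stands in its opposite reading. The LEU4 and LEU9 windows are chrXIV:426839-426865 (minus strand, 95 to 101 bases) and chrXV:522760-522786 (plus strand, 251 to 257 bases). The ILV6 window is chrIII:105682-105708 (minus strand, 144 to 150 bases) and the LYS1 window is chrIX:420970-420996 (minus strand, 244 to 250 bases), where the word again stands in its opposite reading. Both pathway activators also carry the word, LYS14 at chrIV:512343-512369 (minus strand, 244 to 250 bases) and LEU3 at chrXII:1035666-1035692 (plus strand, 411 to 417 bases). No match to the 7-base word was found for GCN4, LYS20, LYS9, BAT2, ARO7, ARO9 or TRP4, whose levels also stand out. Of these, TRP4 held the 6-base core. This says only that these letters are not in the window.

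Leu3 binds a palindrome, searched here as CCGGNNCCGG. It was rarer still: 4 of the 37 genes (10.8%) held it, all of them branched-chain genes, against 16 of all 5876 genes (0.272%). The site is in capitals in these windows.
LEU1: cgaaaattCCGGGACCGGcgaaattt
ILV2: ggagcctgCCGGTACCGGcttggctt
ILV5: ggtctcctCCGGTACCGGttctgcca
BAT1: tgtgtttgCCGGTACCGGcctttaag
They lie at chrVII:478852-478877 (LEU1, minus strand), chrXIII:483608-483633 (ILV2, plus strand), chrXII:839613-839638 (ILV5, minus strand) and chrVIII:517377-517402 (BAT1, plus strand). Such a match is a description of the sequence and was not tested as a binding site.

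Levels are given as mRNA TPM, the deposited TPM (transcript abundance per length) rescaled so that the nuclear protein-coding genes of each library sum to 1000000. They are per length and can be compared between genes. Their ratios between groups rest on summed TPM and not on summed reads. They can differ, also in sign, from the fold changes given further on, whether those are set against the typical gene or against summed mRNA reads. The 37 genes together took 6618 ± 264 mRNA TPM at 1 °C and 15778 ± 564 at 5 °C, against 8298 ± 457 at 30 °C (mean ± SD, n = 3 libraries each, low GSH). The 5 °C cells thus gave these genes the largest share of their mRNA and the 1 °C cells the smallest, and the ranges of the 3 temperatures do not overlap. The order held for the summed histidine genes (497 ± 11.7 at 1 °C, 1956 ± 137 at 5 °C and 909.7 ± 87.4 at 30 °C) and for the aromatic genes (1488 ± 20.7, 2907 ± 125 and 2319 ± 128 mRNA TPM at 1, 5 and 30 °C). The branched-chain genes summed to 3102 ± 181 at 1 °C, 6559.8 ± 234 at 5 °C and 3350.2 ± 506 at 30 °C, where the 1 °C and 30 °C values lie within the spread of the libraries. The lysine genes had another order, with 905 ± 57.2 mRNA TPM at 1 °C, 3144 ± 166 at 5 °C and 771 ± 41.1 at 30 °C, so that 30 °C was lowest. Mean levels were higher at 5 °C than at 1 °C for 33 of the 37 genes and higher at 5 °C than at 30 °C for 29, whereas 11 were higher at 1 °C than at 30 °C. The same was not counted over all genes, so these counts do not show a trait particular to the 37. With counts scaled to summed mRNA reads, the median log2 change of all genes was itself 0.64 at 1 °C and 0.29 at 5 °C against 30 °C, and 0.33 at 1 °C against 5 °C.

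Among the 37 genes the median percentile of the level among all nuclear protein-coding genes was 75.9 in 1 °C cells, 88.7 in 5 °C cells and 84.5 in 30 °C cells. ILV5, the reductoisomerase shared by valine and isoleucine synthesis, was the most abundant at 1 °C and at 30 °C, and LEU4, the main isopropylmalate synthase, at 5 °C. At the low end stood HIS6, an isomerase of histidine synthesis, with 18.2 ± 1.52 mRNA TPM at 1 °C and 21.5 ± 2.16 at 5 °C, and the activator LEU3, with 18.7 ± 4.22 at 30 °C. The plot of levels by temperature shows 8 of the genes library by library.

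**Figure D1:**
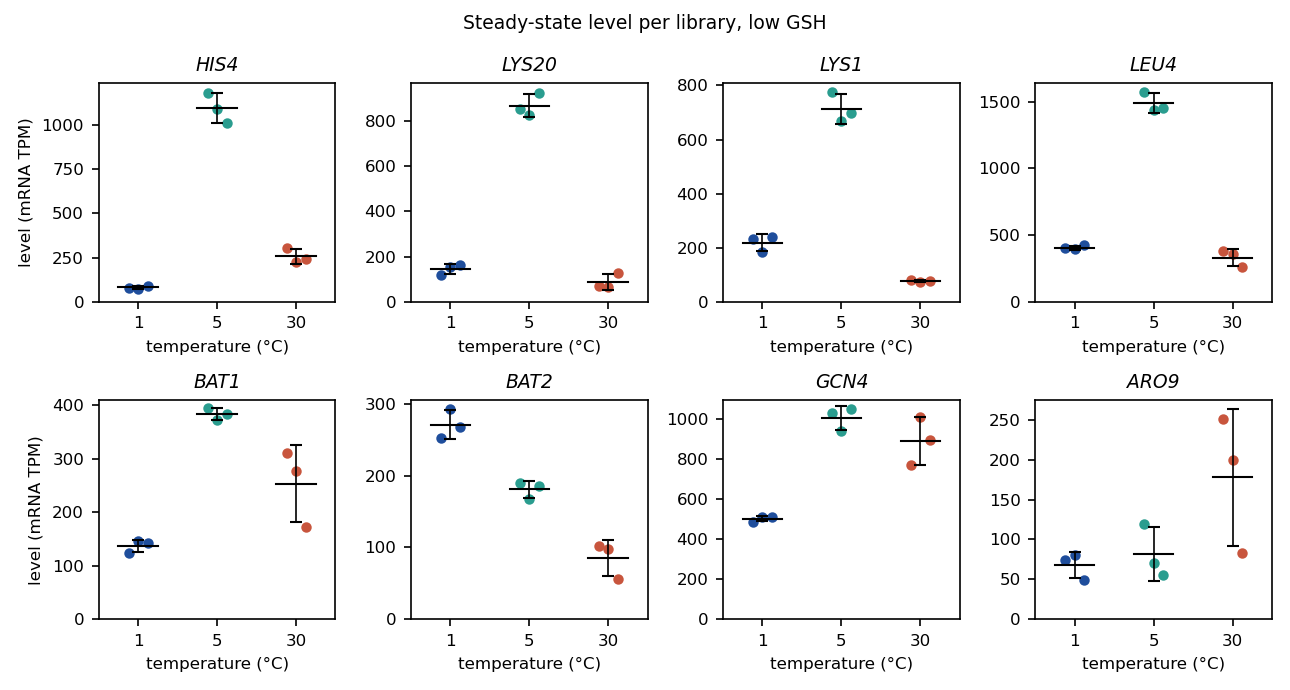
Steady-state level in mRNA TPM (vertical axes, from 0) against temperature in °C for 8 genes at low GSH. Points are the 3 libraries of each group, the wide bar is their mean and the error bar 1 SD. HIS4, LYS20, LYS1 and LEU4 were highest at 5 °C, BAT2 at 1 °C and ARO9 at 30 °C, where its 3 libraries spread most.

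To compare these genes between temperatures in steady-state mRNA, the read counts were tested with edgeR's quasi-likelihood test. The study's methods describe a 30 °C preculture and then a longer incubation at the chosen temperature. Culture age, density and growth state of each library are not given in the sources used here. Temperature cannot be told apart from them in any comparison between temperatures. Fold changes are on the log2 scale after TMM scaling, which sets the typical gene near 0, so higher and lower mean relative to the typical gene, and a gene is called at an adjusted p under 0.05 over all genes tested. At 1 °C against 30 °C, 32 of the 37 genes were lower, 4 were higher and 1 was not called, with a median of -1.37 against 0.03 for all genes. Over all 5697 genes tested, 36.4% were lower and 36.9% higher. Scaled instead to the summed mRNA reads, which moved the median of all genes to 0.64, 26 of the 37 were lower and 8 higher, and LEU4, TRP3, LYS4 and ILV5 turned from lower to positive values. Over all 5697 genes, 939 were lower and 3648 higher on that scale. Scaled to the reads of Schizosaccharomyces pombe cells that the study added to each sample, the median of all genes was 2.29. Of all 5697 genes, 5335 were then higher and 39 lower. The 37 had a median of 0.92, with 28 higher and 0 lower. Against the added S. pombe RNA, then, the genes gained less than the typical gene, and the summed level of all 37 per summed S. pombe TPM was 0.0658 ± 0.0117 at 1 °C against 0.0271 ± 0.000990 at 30 °C (mean ± SD, n = 3 each). The number of S. cerevisiae cells in each sample is not given in the sources used here, so more cells and more RNA per cell cannot be told apart in this ratio.

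HIS4, an enzyme that catalyses several steps of histidine synthesis, was the lowest of the 37 at 1 °C relative to 30 °C. Its steady-state levels were 80.9, 71.9 and 92.0 mRNA TPM at 1 °C, against 305, 225 and 244 at 30 °C, with a log2 change of -2.46 (SE 0.16, adjusted p = 5.0e-09). The 2 groups do not overlap. ARO9, an aromatic aminotransferase induced by aromatic amino acids, had 74.2, 80.5 and 49.2 mRNA TPM at 1 °C, against 251, 199 and 83.0 at 30 °C, and a log2 change of -2.22 (SE 0.36, adjusted p = 6.6e-05). Without replicate 3 at 30 °C, its lowest 30 °C library, the change was -2.58 (adjusted p = 1.7e-07). TRP4, the anthranilate phosphoribosyltransferase, had 38.9, 42.8 and 42.1 mRNA TPM at 1 °C, against 103, 99.7 and 94.9 at 30 °C, and a log2 change of -2.06 (SE 0.10, adjusted p = 2.8e-10). On the S. pombe scale ARO9 and TRP4 stood at 0.10 and 0.22, with neither called.

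Of the 4 genes called higher at 1 °C, BAT2, LYS1 and LEU3 had close values, and their order turned without replicate 3 at 30 °C (0.61, 0.68 and 0.64). BAT2 encodes the cytosolic branched-chain aminotransferase and had 252, 293 and 267 mRNA TPM at 1 °C, against 102, 97.8 and 55.6 at 30 °C, a log2 change of 0.87 (SE 0.19, adjusted p = 6.9e-04). LYS1, the last enzyme of lysine synthesis, had 233, 182 and 240.4 mRNA TPM at 1 °C, against 81.0, 72.3 and 78.5 at 30 °C, and changed by 0.71 (SE 0.13, adjusted p = 1.5e-04). The activator LEU3 had 46.4, 46.5 and 43.1 mRNA TPM at 1 °C, against 15.5, 17.1 and 23.5 at 30 °C, and changed by 0.49 (SE 0.09, adjusted p = 2.8e-04). All 3 genes have 1 °C levels above every 30 °C library, which was not counted over all genes. They stayed higher on the S. pombe scale, where 5335 of all 5697 genes were higher, so this does not set them apart. The other activator, LYS14, rose by 0.22 (SE 0.08, adjusted p = 0.025), a call that was lost when any of 3 libraries was left out (replicate 1 at 1 °C and replicates 1 and 2 at 30 °C, with adjusted p = 0.087, 0.087 and 0.091). ILV5 was lower, at -0.36 (SE 0.12, adjusted p = 0.016), and its call was likewise lost without replicate 1 or 2 at either temperature.

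GCN4 itself had 488, 509 and 510.3 mRNA TPM at 1 °C, 1030.2, 940.1 and 1051 at 5 °C and 769, 1009 and 895 at 30 °C. At 1 °C it was lower than at 30 °C, with a log2 change of -1.60 (SE 0.09, adjusted p = 1.3e-09), and its 5 °C change against 30 °C was -0.46 (SE 0.09, adjusted p = 2.8e-04), where the levels overlap. On the S. pombe scale the GCN4 values turned positive, at 0.67 for 1 °C and 0.49 for 5 °C, and on the scale of summed mRNA reads the 5 °C value was -0.15 and no longer called (adjusted p = 0.12).

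At 5 °C against 30 °C the list split: 16 of the 37 genes were higher, 13 were lower and 8 were not called, with a median of 0.18 against -0.03 for all genes. Without replicate 3 at 30 °C, 17 were lower. Of all genes tested, 36.5% were higher and 37.9% lower, so the share of these genes called higher (16 of 37) lies near the background. Scaling to summed mRNA reads gave 20 higher and 8 lower, and scaling to S. pombe reads gave 25 higher and 2 lower, with all-gene medians of 0.29 and 0.92. Over all 5697 genes, summed mRNA reads gave 2779 higher and 1479 lower, and S. pombe reads 3411 higher and 356 lower. By pathway the pattern was uneven. All 7 lysine genes were higher, by 0.27 to 2.67 on the log2 scale, and were called higher on both other scales, whereas 7 of the 11 aromatic genes were lower and 2 higher, and 4 of the 6 histidine genes were lower and 2 higher. Of the 10 branched-chain genes 3 were higher, 1 was lower and 6 were not called.

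The lysine genes are given in the order of their pathway. LYS20, a homocitrate synthase at the entry of the pathway, had 852, 826 and 925 mRNA TPM at 5 °C, against 69.0, 65.1 and 129.6 at 30 °C, a log2 change of 2.67 (SE 0.20, adjusted p = 2.1e-08). Its highest 30 °C library was replicate 3, and without it the change was 2.99. The other homocitrate synthase, LYS21, had 382, 340.3 and 370.4 mRNA TPM at 5 °C, against 163, 159 and 165 at 30 °C, and rose by 0.51 (SE 0.10, adjusted p = 4.5e-04). The 2 coding sequences share 46.5% and 45.2% of their 31-base words, so reads could be split between them and each value is uncertain. LYS4, a homoaconitase, rose by 0.92 (SE 0.08, adjusted p = 1.5e-07), and LYS12, the homoisocitrate dehydrogenase after it, by 0.27 (SE 0.09, adjusted p = 0.015), a call that was lost without replicate 3 at 5 °C or replicate 2 at 30 °C (adjusted p = 0.064 and 0.054). LYS2, the aminoadipate reductase, had 183, 158 and 158 mRNA TPM at 5 °C, against 61.5, 59.5 and 58.4 at 30 °C, and rose by 0.82 (SE 0.09, adjusted p = 1.8e-06). LYS9 had 420.3, 353 and 404 mRNA TPM at 5 °C, against 103, 82.6 and 66.4 at 30 °C, and rose by 1.56 (SE 0.16, adjusted p = 6.0e-07), and LYS1, which takes the product of LYS9 to lysine, had 774, 667 and 697, against 81.0, 72.3 and 78.5, and rose by 2.55 (SE 0.13, adjusted p = 5.5e-10). The activator LYS14 rose with them, with 157, 154 and 156 mRNA TPM at 5 °C, against 32.9, 36.7 and 46.5 at 30 °C, and a log2 change of 1.36 (SE 0.08, adjusted p = 2.7e-09). In all 8 genes every 5 °C library lay above every 30 °C library in mRNA TPM. This was not counted over all genes, so it does not show a trait particular to these 8.

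ARO7 and ARO9 were the genes farthest below 30 °C at 5 °C, and without replicate 3 at 30 °C they were at -2.03 and -2.17. ARO7 encodes chorismate mutase, which commits chorismate to phenylalanine and tyrosine, and had 23.6, 28.5 and 23.9 mRNA TPM at 5 °C, against 64.6, 62.8 and 76.2 at 30 °C, a log2 change of -2.06 (SE 0.13, adjusted p = 2.3e-09). ARO9 had 119.5, 70.9 and 54.9 mRNA TPM at 5 °C, against the 30 °C levels given above, with overlapping groups, and changed by -1.81 (SE 0.36, adjusted p = 3.8e-04). LEU9, the minor isopropylmalate synthase, had 70.9, 57.7 and 60.3 mRNA TPM at 5 °C, against 115, 106 and 75.7 at 30 °C, and changed by -1.32 (SE 0.16, adjusted p = 3.0e-06). ARO7 and ARO9 were still lower on the S. pombe scale, at -1.12 and -0.87, and LEU9 was at -0.35 with no call. HIS4 was the histidine gene that rose most at 5 °C, with 1181, 1089.6 and 1012 mRNA TPM and a log2 change of 1.42 (SE 0.15, adjusted p = 9.6e-07). The call of HIS5, at 0.25, was lost without replicate 1 or 2 at 5 °C or replicate 2 at 30 °C.

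**Figure D2:**
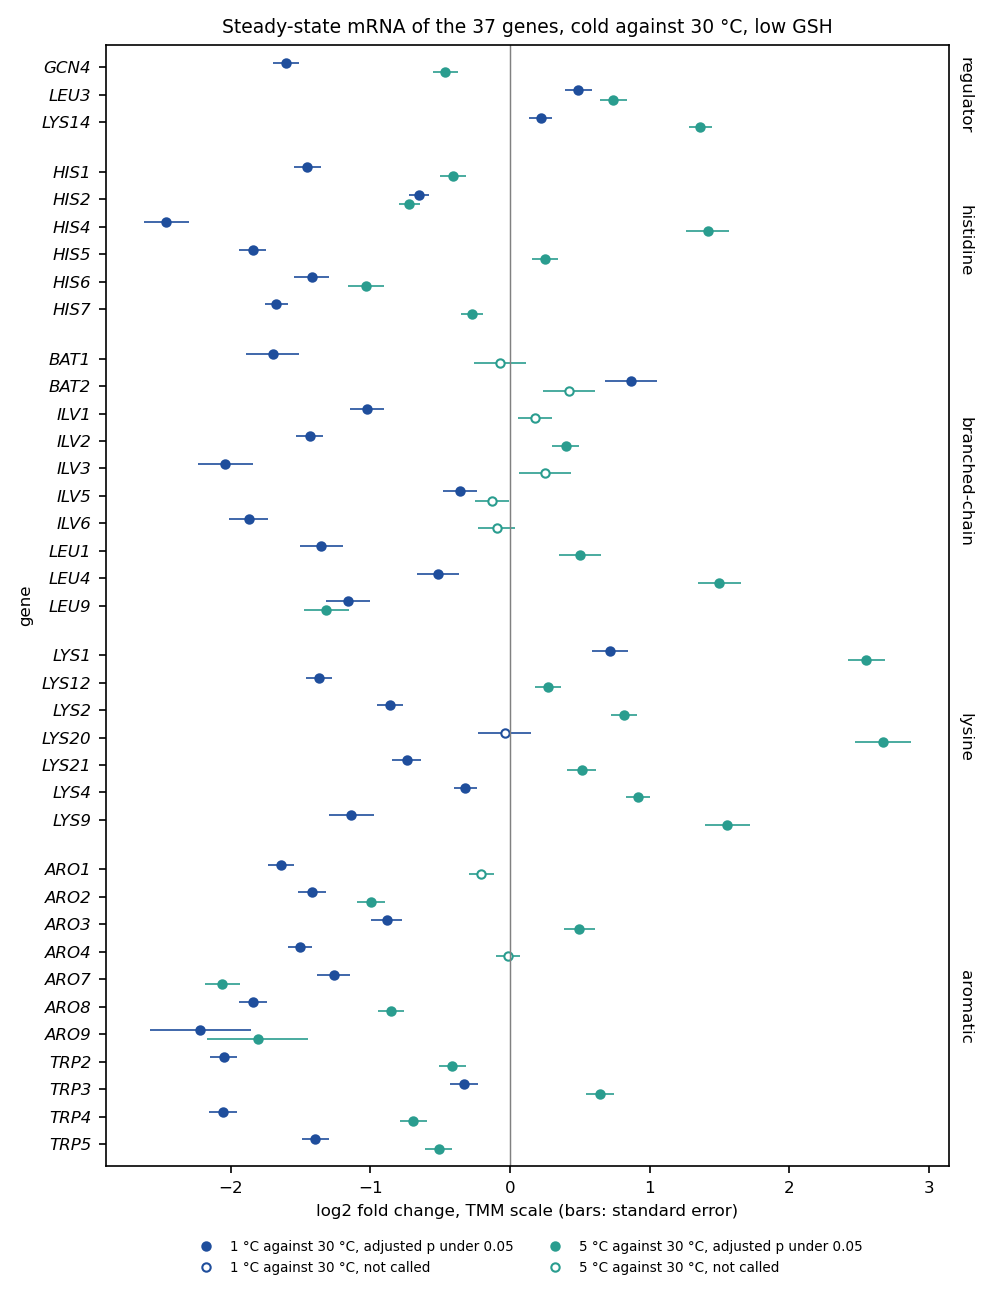
Log2 fold change after TMM scaling (horizontal axis) of the 37 genes (vertical axis, grouped by role) in steady-state mRNA at 1 °C and at 5 °C against 30 °C, low GSH, 3 libraries per group. Bars are standard errors, and open points were not called at an adjusted p under 0.05. At 1 °C 32 genes are called lower, beside 36.4% of all genes, and at 5 °C all 7 lysine genes lie on the higher side. With S. pombe reads as library size 0 of the 37 are lower at 1 °C, beside 39 of 5697 genes.

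The 1 °C and 5 °C cells were then set against each other directly. At 1 °C against 5 °C, 31 of the 37 genes were lower and 1 was higher, with a median of -1.37 against 0.04 for all genes, and 28.9% of all genes were lower and 29.8% higher. All 7 lysine genes were lower at 1 °C, as were 9 of the 11 aromatic, 7 of the 10 branched-chain and 5 of the 6 histidine genes and all 3 activators. Scaled to summed mRNA reads 28 were lower and 4 higher (median of all genes 0.33), whereas scaled to S. pombe reads 6 were lower and 9 higher (median of all genes 1.36). Of all 5697 genes, 888 were lower and 2909 higher on summed mRNA reads, and 73 lower and 4924 higher on S. pombe reads. HIS4 differed most, 80.9, 71.9 and 92.0 mRNA TPM at 1 °C against 1181, 1089.6 and 1012 at 5 °C, a log2 change of -3.88 (SE 0.17, adjusted p = 9.7e-10), and it was at -2.53 on the S. pombe scale. LYS20 and LYS9 followed, with log2 changes of -2.71 (SE 0.20, adjusted p = 8.7e-08) and -2.69 (SE 0.17, adjusted p = 1.8e-08). ARO7 was the gene called higher, with 54.8, 47.7 and 43.2 mRNA TPM at 1 °C against 23.6, 28.5 and 23.9 at 5 °C and a log2 change of 0.80 (SE 0.12, adjusted p = 7.1e-05). GCN4 was lower, at -1.14 (SE 0.09, adjusted p = 1.5e-07), and was at 0.18 on the S. pombe scale. LEU3 was called lower at -0.25, a call lost when any of 5 cold libraries was left out, and HIS6 lost its call without replicate 1 at 5 °C (adjusted p = 0.086).

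The remaining enzymes are given by pathway, with mean levels ± SD over 3 libraries and the log2 changes of 1 °C and 5 °C cells against 30 °C. In the aromatic pathway, ARO1, which carries out most steps to chorismate in 1 polypeptide, had 80.1 ± 4.24 mRNA TPM at 1 °C, 196 ± 10.5 in 5 °C cells and 143 ± 1.88 at 30 °C, with changes of -1.64 at 1 °C and -0.21 at 5 °C. ARO2 had 183 ± 11.3 mRNA TPM at 1 °C, 223 ± 15.9 in 5 °C cells and 284 ± 32.3 at 30 °C, and changed by -1.42 at 1 °C and -0.99 at 5 °C. All aromatic genes were lower at 1 °C, but on the branch to tryptophan the genes parted at 5 °C. TRP2 and TRP3, which together form anthranilate synthase, changed by -2.05 and -0.33 at 1 °C and by -0.41 and 0.64 at 5 °C. At 5 °C TRP3 was called higher and TRP2 lower, and the TRP3 levels were 144, 141 and 141 mRNA TPM at 1 °C, 267, 260.3 and 234 in 5 °C cells and 113, 91.4 and 104 at 30 °C. TRP5, tryptophan synthase, had 196 ± 13.7 mRNA TPM at 1 °C, 329.5 ± 9.69 in 5 °C cells and 300.0 ± 43.5 at 30 °C, with changes of -1.40 at 1 °C and -0.51 at 5 °C. Neither ARO1 nor ARO4 was called at 5 °C, but without replicate 3 at 30 °C ARO1 was called lower, at -0.26 (adjusted p = 0.020). On the scale of summed mRNA reads the 5 °C calls of TRP2, TRP5 and HIS1 were lost.

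Among the histidine genes, HIS1 had 177 ± 5.23 mRNA TPM at 1 °C, 332 ± 23.5 in 5 °C cells and 280.5 ± 30.0 at 30 °C, with changes of -1.45 at 1 °C and -0.41 at 5 °C. HIS7 had 55.5 ± 2.76 mRNA TPM at 1 °C, 133 ± 7.49 in 5 °C cells and 102 ± 6.44 at 30 °C and changed by -1.67 at 1 °C and -0.27 at 5 °C, where the 5 °C value turned positive on the scale of summed mRNA reads. HIS2, the histidinol phosphatase, changed by -0.65 at 1 °C and -0.72 at 5 °C, and HIS6 by -1.42 at 1 °C and -1.03 at 5 °C, so these 2 were lower at both temperatures. HIS5 was lower at 1 °C, at -1.84.

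In the branched-chain pathway, ILV2 had 216 ± 13.4 mRNA TPM at 1 °C, 698 ± 21.9 in 5 °C cells and 337 ± 24.7 at 30 °C, with changes of -1.44 at 1 °C and 0.40 at 5 °C, and its regulatory partner ILV6 had 185 ± 17.3 mRNA TPM at 1 °C, 576 ± 21.7 in 5 °C cells and 389 ± 61.6 at 30 °C, with changes of -1.87 at 1 °C and -0.09 at 5 °C, the last not called. Without replicate 3 at 30 °C the 5 °C value was -0.25 and called (adjusted p = 0.043). ILV3, the dihydroxyacid dehydratase that acts next to ILV5, had 204 ± 35.4 mRNA TPM at 1 °C, 906 ± 11.4 in 5 °C cells and 478 ± 107 at 30 °C, and changed by -2.04 at 1 °C and 0.25 at 5 °C, again with the 5 °C value not called. ILV1, threonine deaminase at the entry to isoleucine, changed by -1.02 at 1 °C and 0.18 at 5 °C, the last not called. LEU1 had 203 ± 9.36 mRNA TPM at 1 °C, 665 ± 32.3 in 5 °C cells and 295 ± 56.2 at 30 °C and changed by -1.35 at 1 °C and 0.50 at 5 °C, both called.

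Counts of calls across the 3 comparisons share libraries, so they are given as a description. Of the 32 genes lower at 1 °C than at 30 °C, 12 were higher and 13 lower at 5 °C. The 12 include HIS4, LEU4, ILV2, the catalytic subunit of acetolactate synthase, and the 4 lysine enzymes LYS2, LYS4, LYS9 and LYS12 with LYS21. The 13 include GCN4, ARO2, the chorismate synthase, and TRP2, TRP4 and TRP5 of tryptophan synthesis. Genes with and without the Gcn4 word had medians of -1.45 (19 with it) and -1.32 (18 without) at 1 °C against 30 °C. At 5 °C against 30 °C the medians were 0.25 and -0.14, and at 1 °C against 5 °C they were -1.63 and -1.17. The difference between genes with and without the word was not tested.

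Several steps are encoded by paired genes, which are set side by side here at 1 °C and at 5 °C against 30 °C. BAT1 and BAT2, the mitochondrial and the cytosolic branched-chain aminotransferase, changed by -1.70 and 0.87 at 1 °C, where both were called, and by -0.07 and 0.42 at 5 °C, where neither was. Without replicate 3 at 30 °C the 5 °C value of BAT1 was -0.32 and called lower (adjusted p = 0.012), and that of BAT2 was 0.16, still not called (adjusted p = 0.087). In levels, BAT1 averaged 137 ± 12.1 mRNA TPM at 1 °C, 384 ± 11.9 in 5 °C cells and 254 ± 72.2 at 30 °C, and BAT2 271 ± 20.6, 181 ± 12.0 and 85.0 ± 25.5, so BAT2 was the more abundant of the pair at 1 °C alone. LEU4 and LEU9 changed by -0.51 and -1.16 at 1 °C and by 1.50 and -1.32 at 5 °C, with all 4 values called. ARO3 and ARO4, the DAHP synthases at the entry of the aromatic pathway that are inhibited by phenylalanine and by tyrosine, changed by -0.88 and -1.51 at 1 °C, both called, and by 0.50 and -0.02 at 5 °C, where ARO3 was called. ARO8 and ARO9, the aromatic aminotransferases, were lower in both, at -1.84 and -2.22 at 1 °C and at -0.85 and -1.81 at 5 °C. LYS20 and LYS21 changed by -0.04, not called, and -0.74, called, at 1 °C, and the LYS20 value was 0.29 (adjusted p = 0.073) without replicate 3 at 30 °C. The difference within a pair was not tested.

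Added glutathione was compared at each cold temperature, since it was the treatment of the study. In steady-state mRNA at high against low GSH, 0 of the 37 genes were called at 1 °C and 0 at 5 °C, by edgeR and by DESeq2 alike. Of all genes, 0% were higher and 0% lower at either temperature, and 298 genes at 1 °C and 43 at 5 °C had an unadjusted p under 0.05, among them 0 and 1 of the 37. The log2 changes of the 37 lay between -0.17 and 0.17 at 1 °C and between -0.22 and 0.24 at 5 °C, with a median SE of 0.10 at 1 °C and 0.10 at 5 °C. GCN4 had 442, 468 and 485 mRNA TPM at high GSH against 488, 509 and 510.3 at low GSH at 1 °C, and HIS4 had 1211, 1189.8 and 1061 against 1181, 1089.6 and 1012 at 5 °C. A change in these genes with added GSH was not detectable with 3 libraries per group, and small changes within these ranges cannot be told from none.

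Newly made mRNA was compared at the earliest labelled time with usable depth: 6 h at 1 °C and 1.5 h at 5 °C, each against 20 min at 30 °C. The labelling times differ, so a gene's value also depends on how far its mRNA had turned over by then. At 1 °C 22 of the 37 genes were lower and 2 were higher, with a median of -0.77 against 0.05 for all genes, where 17.8% of all genes were lower and 19.2% higher. At 5 °C 17 were higher and 2 lower, with a median of 0.63 against 0.00 for all genes, where 22.3% were higher and 20.3% lower. Scaled to summed mRNA reads the 1 °C counts were 15 lower and 4 higher and the 5 °C counts 21 higher and 2 lower. Of all 5696 genes, 632 were lower and 1956 higher at 1 °C, and 1368 higher and 1056 lower at 5 °C. Scaled to S. pombe reads, the counts of the 37 were 6 higher and 0 lower at 1 °C (median of all genes 1.88) and 2 higher and 1 lower at 5 °C (median of all genes -0.32). Over all genes, 3324 were higher and 16 lower at 1 °C, and 114 higher and 277 lower at 5 °C. The ratio of summed S. cerevisiae mRNA TPM to the summed TPM of all S. pombe transcripts at 30 °C, 20 min, was 2.52 ± 1.79 (SD, n = 3). It was 3.98, 3.04 and 0.523 in replicates 1, 2 and 3, so this last scale is loose. Leaving out 1 library at a time gave 16 to 29 genes lower at 1 °C and 14 to 16 higher at 5 °C. Among the 1 °C calls lost in this way were those of LEU4, LEU9, TRP4, BAT1, HIS7 and ARO3.

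In new mRNA at 5 °C, 6 of the 7 lysine genes and LYS14 were higher, as in the steady state. LYS20 had 1128, 1602 and 1625 mRNA TPM at 5 °C, against 97.4, 85.9 and 199.5 at 30 °C, a log2 change of 3.27 (SE 0.31, adjusted p = 1.2e-05), and LYS1 had 457, 749 and 656, against 79.4, 93.4 and 80.0, a change of 2.56 (SE 0.25, adjusted p = 1.4e-05). For both genes the groups do not overlap. TRP4 had 675, 792 and 698 mRNA TPM in new mRNA at 5 °C, against 198, 187 and 208 at 30 °C, and rose by 1.57 (SE 0.20, adjusted p = 9.3e-05), although it was lower in steady-state mRNA at 5 °C (-0.69). HIS7, the glutamine amidotransferase of histidine synthesis, shared this pair of opposite calls, with 1.09 in new and -0.27 in steady-state mRNA. The genes lower in new mRNA at 5 °C were ARO9, with 111, 83.7 and 66.8 mRNA TPM against 438, 229 and 87.6 at 30 °C and a change of -1.89 (SE 0.50, adjusted p = 0.0091), and GCN4, with 781, 1039.6 and 1337 against 1689, 2302 and 1885 and a change of -1.23 (SE 0.36, adjusted p = 0.017). The GCN4 call was lost without replicate 1 or 2 at 5 °C or replicate 2 at 30 °C (adjusted p = 0.059, 0.055 and 0.057). LEU4, ILV2 and ILV3 were called higher, and each lost its call without any 1 of 4 to 6 libraries.

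In new mRNA at 1 °C, BAT2 and LYS20 were the genes called higher. BAT2 had 270.1, 314 and 348 mRNA TPM at 1 °C, against 83.0, 92.5 and 87.5 at 30 °C, a log2 change of 1.27 (SE 0.21, adjusted p = 8.3e-04). LYS20 had 288, 424 and 481, against 97.4, 85.9 and 199.5, a change of 1.16 (SE 0.29, adjusted p = 0.0087), with its 1 °C libraries all above those at 30 °C. The lowest relative to 30 °C was ARO9, with 48.4, 87.4 and 64.4 mRNA TPM at 1 °C and a change of -2.54 (SE 0.51, adjusted p = 0.0025), followed by GCN4, with 435, 556 and 1043 mRNA TPM and a change of -2.08 (SE 0.37, adjusted p = 0.0013), and HIS1, which opens histidine synthesis, with 213, 212 and 168 against 494, 471 and 434 at 30 °C and a change of -1.81 (SE 0.23, adjusted p = 1.6e-04). Replicate 3 of the 1 °C libraries held the highest GCN4 level.

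**Figure D3:**
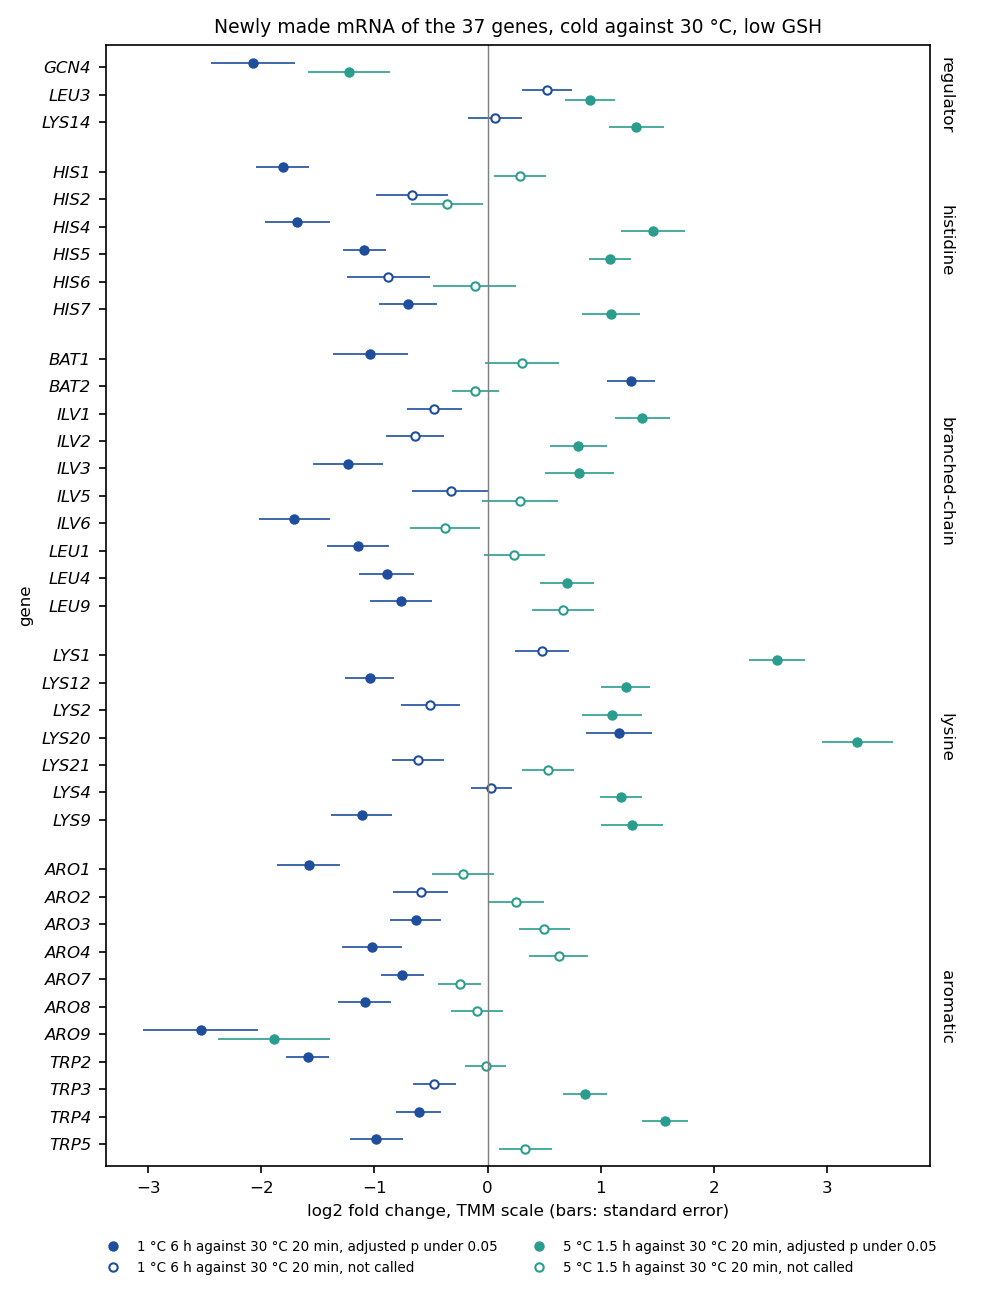
Log2 fold change after TMM scaling (horizontal axis) of the 37 genes (vertical axis, grouped by role) in newly made mRNA at 1 °C (6 h) and 5 °C (1.5 h) against 30 °C (20 min), low GSH, 3 libraries per group. Bars are standard errors, wider than in steady-state mRNA, and open points were not called at an adjusted p under 0.05. At 5 °C 17 genes are called higher and at 1 °C 22 are called lower, against 2 and 0 with S. pombe reads as library size. Of all genes 22.3% are called higher at 5 °C and 17.8% lower at 1 °C, against 114 and 16 of 5696 with S. pombe reads.

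Labelled mRNA was next followed over time. As labelling goes on, the labelled pool comes to hold older transcripts, so a gene whose share of the labelled mRNA falls with time turns over faster than the typical gene, as far as its synthesis is steady. At 1 °C and low GSH, 10 of the 37 genes were higher and 9 lower at 48 h than at 6 h, where 25.6% of all genes were higher and 25.5% lower. At 5 °C and low GSH, 10 were higher and 12 lower at 48 h than at 1.5 h, where 32.1% were higher and 31.8% lower. At high GSH the counts were 16 higher and 5 lower at 1 °C (all genes 26.1% and 25.5%) and 9 higher and 15 lower at 5 °C (all genes 32.0% and 30.5%). Medians of the 37 were 0.21, -0.07, 0.33 and -0.23 in these 4 comparisons. The 1 °C low-GSH count of higher genes moved with single libraries, to 5 without replicate 2 at 6 h and to 14 without replicate 3 at 6 h, where the count of lower genes was 6. Its calls of TRP5, ARO2, LYS21, HIS2, TRP2, LYS20, HIS4 and ILV5 were each lost without some single library. On the S. pombe scale the labelled pool grew, by a median of 1.48 at 1 °C and 2.13 at 5 °C over all genes at low GSH, and 28 and 36 of the 37 genes were higher and 0 lower. Of all 5770 genes, 4704 and 5224 were higher and 8 and 9 lower.

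The genes lower with time included both pathway activators in all 4 series. LEU3 had 43.7, 41.2 and 44.7 mRNA TPM at 48 h, against 88.1, 115 and 98.8 at 6 h, at 1 °C and low GSH, a log2 change of -0.90 (SE 0.12, adjusted p = 3.7e-07). At 5 °C it had 48.2, 48.9 and 44.9 at 48 h, against 99.6, 113 and 116 at 1.5 h, a change of -0.91 (SE 0.12, adjusted p = 8.7e-08). At high GSH it changed by -0.92 and -0.87. LYS14 changed by -0.62 and -0.74 at low GSH and by -0.86 and -0.74 at high GSH, all called. LYS2 and LEU9 were also lower in all 4 series, LYS2 at -0.84, -0.96, -0.80 and -1.06 and LEU9 at -0.74, -1.22, -0.59 and -1.57, at 1 and 5 °C with low and then high GSH. The LEU9 call at 1 °C and high GSH was lost without any of 3 libraries. On the S. pombe scale LEU3, LYS2 and LEU9 had positive values in these comparisons, such as 0.59, 0.58 and 0.66 at 1 °C and low GSH.

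TRP4 showed the steepest fall of the 37 at 5 °C. Its share of labelled mRNA at low GSH was 722 ± 62.1 mRNA TPM after 1.5 h of labelling, 641 ± 43.3 after 3 h and 359.8 ± 10.9 after 6 h (mean ± SD, n = 3 each). It was 212 ± 5.21 by 12 h and 204 ± 18.9 by 24 h, and had reached 167 ± 4.90 by 48 h and 145 ± 6.82 by 96 h. The 48 h against 1.5 h change was -1.81 (SE 0.14, adjusted p = 1.7e-12) at low GSH and -1.97 (SE 0.17, adjusted p = 8.4e-11) at high GSH. HIS1 was lower with time at 5 °C as well, with 316, 254 and 264 mRNA TPM at 48 h, against 849, 728 and 552 at 1.5 h, a log2 change of -1.05 (SE 0.16, adjusted p = 8.0e-07) at low GSH and -1.26 at high GSH. Under S. pombe scaling TRP4 and HIS1 were at 0.31 and 1.07 at low GSH and at 0.58 and 1.26 at high GSH.

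The genes higher with time in all 4 series were ILV6, the regulatory subunit of acetolactate synthase, LEU4, ARO9, LYS1 and HIS5, the histidinol-phosphate aminotransferase. The LYS1 call at 5 °C was lost without replicate 1 at 1.5 h with low GSH (adjusted p = 0.084) and without replicate 2 at 1.5 h with high GSH (adjusted p = 0.051). ILV6 had 235, 261 and 252 mRNA TPM at 48 h, against 109, 85.3 and 148 at 6 h, at 1 °C and low GSH, a log2 change of 1.44 (SE 0.21, adjusted p = 2.1e-06). At 5 °C it had 507, 429 and 409 at 48 h, against 187, 291 and 257 at 1.5 h, a change of 1.18 (SE 0.21, adjusted p = 1.3e-05). LEU4 changed by 1.04 (SE 0.18, adjusted p = 1.5e-05) at 1 °C and by 1.27 (SE 0.18, adjusted p = 2.2e-07) at 5 °C, low GSH, and by 1.12 and 1.08 at high GSH. ARO9 changed by 1.05 (SE 0.26, adjusted p = 0.0011) and 1.04 at low GSH and by 1.06 and 0.99 at high GSH. So the isopropylmalate synthases LEU4 and LEU9 had opposite calls in every series. GCN4 was not called at low GSH, with -0.15 (SE 0.25, adjusted p = 0.64) at 1 °C and 0.53 (SE 0.25, adjusted p = 0.066) at 5 °C, nor at 1 °C with high GSH, with 0.14 (SE 0.21, adjusted p = 0.61). At 5 °C and high GSH it was 0.64 (SE 0.21, adjusted p = 0.01), a call lost without replicate 2 at 48 h (adjusted p = 0.073). BAT2 was higher with time at 5 °C, by 1.25 (SE 0.15, adjusted p = 1.2e-08) at low GSH and 1.15 at high GSH.

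**Figure D4:**
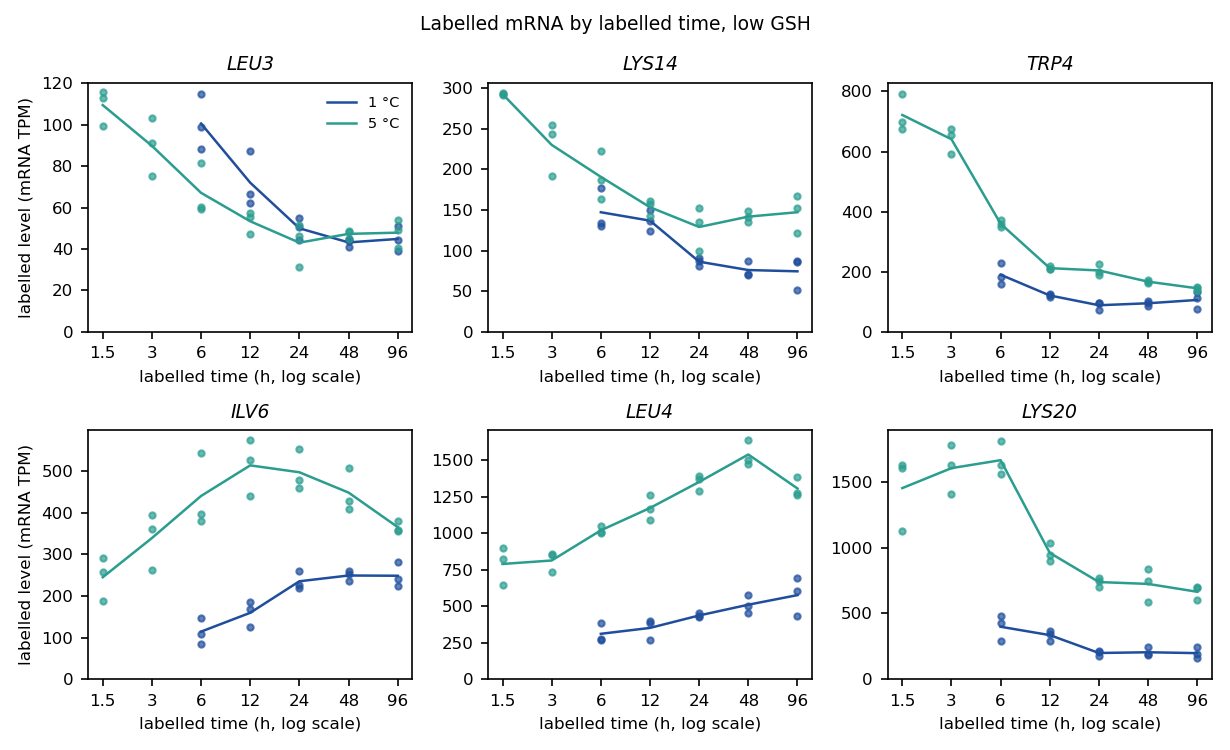
Labelled level in mRNA TPM (vertical axes, from 0) against labelled time in h (log scale) for 6 genes at 1 °C and 5 °C, low GSH. Points are libraries and lines join the means of 3. As shares of labelled mRNA, though not relative to S. pombe reads, LEU3, LYS14 and TRP4 fall with labelled time at both temperatures, LEU4 and ILV6 are higher at 48 h than at the first time, and LYS20 falls after 6 h.

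Whether the change with labelled time differed between temperatures was tested in the low-GSH fit as the 5 °C change (48 h against 1.5 h) minus the 1 °C change (48 h against 6 h). The early times differ between the temperatures, and their part in the difference was not tested. Of the 37 genes 6 had a lower and 2 a higher change at 5 °C, where 13.3% and 16.2% of all genes did. HIS1, TRP4 and HIS7 had the lowest differences, -1.30 (SE 0.22, adjusted p = 3.9e-05), -1.14 (SE 0.19, adjusted p = 4.3e-05) and -0.69 (SE 0.19, adjusted p = 0.0066), and LEU1, the isopropylmalate isomerase, and BAT2 the highest, 0.95 (SE 0.25, adjusted p = 0.0045) and 0.94 (SE 0.21, adjusted p = 8.2e-04). GCN4 had 0.69 (SE 0.36, adjusted p = 0.15). Without 1 library the counts ran from 4 to 10 lower and from 2 to 5 higher. The count of lower changes was 10 without replicate 3 at 1 °C, 6 h, and the count of higher changes was 5 without replicate 1 at 1 °C, 6 h, and 4 without replicate 3 at 5 °C, at 1.5 h or at 48 h. On the S. pombe scale 0 of the 37 were called, where 266 of all 5770 genes were higher and 9 lower.

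The labelled level relative to S. pombe was also fitted with constant synthesis and first-order decay up to 48 h, which gives a half-life that includes dilution by growth. Libraries with the same replicate number were fitted as 1 series, although the sources do not say that they came from the same culture. The median of the 37 at low GSH was 11.4 h at 1 °C, with 8.99, 14.4 and 8.58 h in the 3 replicate series, and 4.03 h at 5 °C, with 3.38, 1.94 and 6.69 h. With the 96 h libraries in the fit the 1 °C median was 7.85 h and the 5 °C median 8.10 h, so the order of the temperatures turned. Over all genes the median was 9.20 h in 1 °C cells and 4.84 h in 5 °C cells. At high GSH the 37 had a median of 11.4 h at 1 °C and another of 10.3 h at 5 °C, where the series gave 21.9, 6.98 and 3.80 h and the median of all genes was 24.9 h, so the 5 °C high-GSH value is poorly determined. Under this model a level can only rise or level off. At 1 °C the summed level of the 37 relative to S. pombe instead fell from 48 h to 96 h in all 3 series, at low and at high GSH. The means were 0.17 and then 0.14 at low GSH, and 0.131 and then 0.0971 at high GSH. At 5 °C this level rose in all series. The model thus does not describe the 1 °C levels past 48 h, and whether it holds up to 48 h was not tested. The fitted values use the same libraries as the comparisons over time and are not separate evidence.

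Fitted half-lives of the lysine and leucine genes spanned a wide range at 5 °C and low GSH. LEU4 had 10.5, 18.3 and 15.7 h in the 3 series and LEU9 1.23, 0.569 and 1.12 h, with no overlap between the pair. At 1 °C LEU4 had 22.6, 96.4 and 13.4 h and LEU9 4.64, 6.52 and 2.73 h. LYS9 had 9.42, 24.0 and 8.52 h at 5 °C, against 1.50, 0.714 and 2.09 h for LYS2 and 1.84, 0.962 and 1.73 h for LYS20. LEU3 had 4.40, 3.65 and 3.90 h at 1 °C, all below the first labelled time there, and 1.73, 0.525 and 5.73 h at 5 °C. TRP4 was lowest at 5 °C, with 0.722, 0.150 and 0.776 h, the value of replicate 2 being the lower limit of the fit, and HIS1 had 1.21, 0.666 and 1.39 h, against 9.14, 11.5 and 11.3 h at 1 °C. GCN4 had 11.3, 14.0 and 4.06 h at 1 °C and 5.75, 7.08 and 11.7 h at 5 °C, overlapping ranges. ARO9 was longest at 1 °C, with 41.7, 72.8 and 64.2 h. Values below the first labelled time of a series, 6 h at 1 °C and 1.5 h at 5 °C, rest on few points of the rise.

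**Figure D5:**
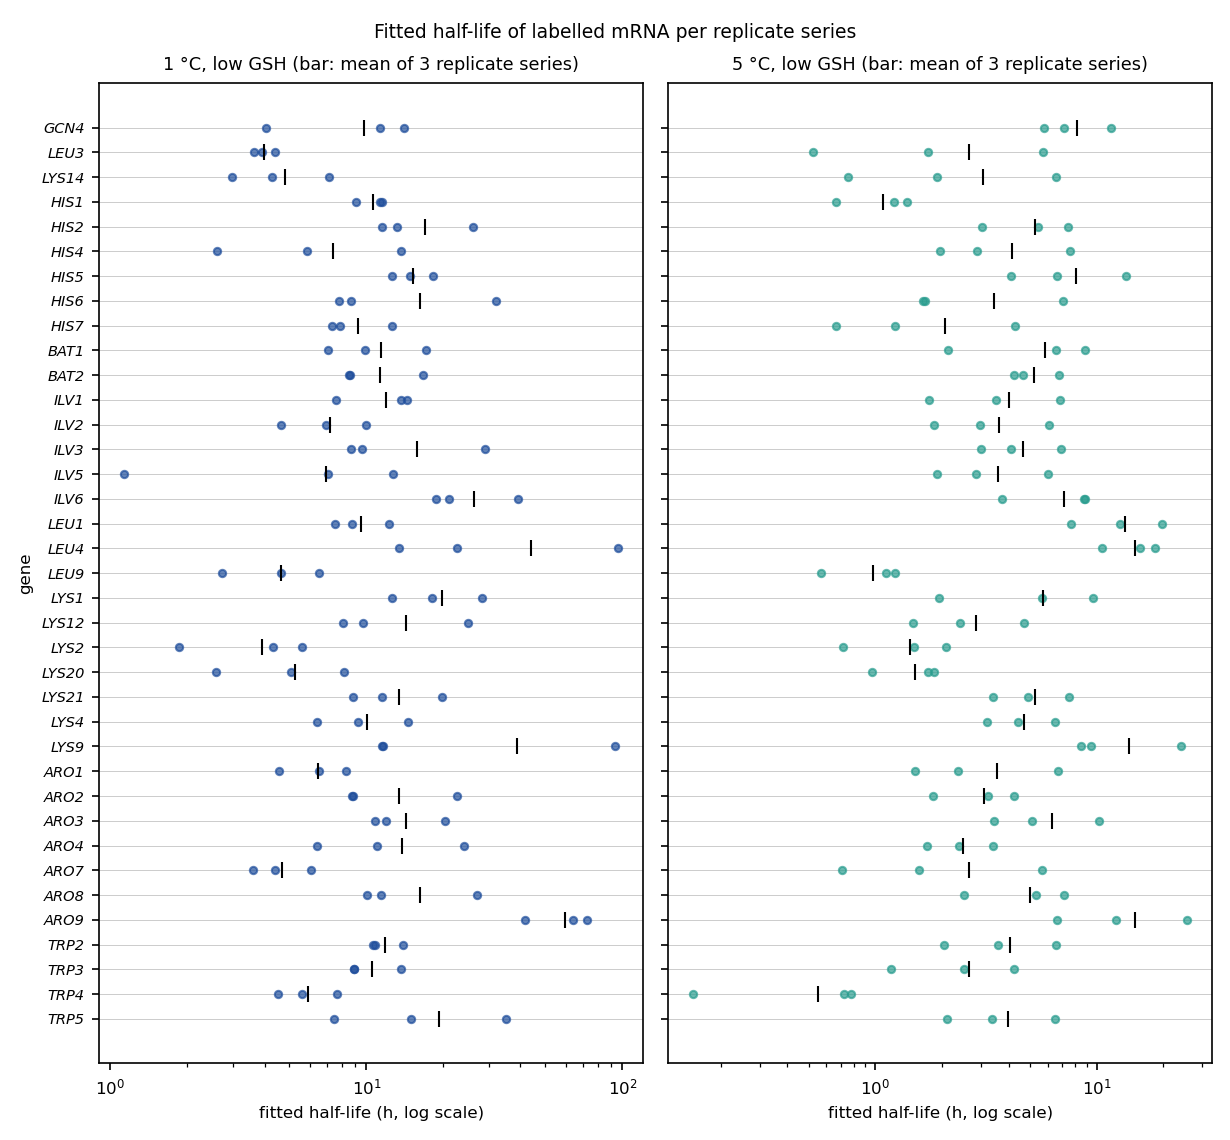
Fitted half-life in h (horizontal axes, log scale, with their own limits) of the labelled mRNA of the 37 genes (vertical axis) at 1 °C and 5 °C, low GSH. Points are the 3 replicate series and black bars their means. By their means LEU4, LYS9 and ARO9 lie at the long end in both panels, though at 1 °C 1 far series sets the LEU4 and LYS9 means, and LEU9, LYS2 and LYS20 toward the short end.

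Related genes outside the 37 were counted for comparison, in steady-state mRNA first, relative to the typical gene. Of all genes tested 36.4% were lower and 36.9% higher at 1 °C, and 37.9% lower and 36.5% higher at 5 °C. Of 28 genes of other amino acid synthesis, 20 were lower and 3 higher at 1 °C against 30 °C (median -1.04), and 13 lower and 11 higher at 5 °C (median -0.24). THR4, threonine synthase, and HOM6, homoserine dehydrogenase, had the smallest adjusted p at 1 °C, with log2 changes of -1.41 and -1.31. Of 22 tested regulators (of 23 listed) of the Gcn4 response and these pathways, 17 were lower and 1 higher at 1 °C (median -0.77) and 15 lower and 3 higher at 5 °C (median -0.53). GCD11, a subunit of the initiation factor that controls GCN4 translation, was lower at both, at -1.53 and -1.52. PCL5, the cyclin that marks Gcn4 for degradation and whose gene is itself a Gcn4 target, was higher at 5 °C by 1.66. Of 20 genes of amino acid uptake and its sensor, 8 were higher and 6 lower at 1 °C (median 0.08) and 13 higher and 3 lower at 5 °C (median 0.52). DIP5, a permease for acidic amino acids, was higher by 1.90 at 1 °C and 3.05 at 5 °C, and LYP1, the lysine permease, by 0.96 and 1.07. The shares of uptake genes at 1 °C and of other synthesis genes at 5 °C lie near those of all genes. Scaled to S. pombe reads, a choice made after the data had been seen, 0 genes of the 3 lists were lower at either temperature, and 26 of the synthesis genes, 22 of the regulators and 20 of the uptake genes were higher at 1 °C and 17, 8 and 17 at 5 °C. Of all 5697 genes, 5335 were higher at 1 °C and 3411 at 5 °C on that scale.

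With labelled time at low GSH the uptake genes were mostly lower, 11 of 20 at 1 °C and 13 of 20 at 5 °C, with 0 and 1 higher, and the regulators likewise, 12 and 15 of 22 lower and 2 and 3 higher, where 25.5% and 31.8% of all genes were lower. Scaled to S. pombe reads, 0 of either list were lower, and 15 and 14 uptake genes and 19 and 18 regulators were higher at 1 and 5 °C, beside 4704 and 5224 of all 5770 genes. TAT2, a tryptophan and tyrosine permease, was lower, at -1.21 at 1 °C and -1.78 at 5 °C, and BAS1, an activator of histidine and purine genes, at -1.07 and -2.19. Of the 28 other synthesis genes 13 were higher and 8 lower at 1 °C and 7 higher and 9 lower at 5 °C. Of all genes, 25.6% and 32.1% were higher at 1 and 5 °C. Scaled to S. pombe reads, 23 and 25 of these synthesis genes were higher and 0 lower. In new mRNA at 5 °C against 30 °C, 14 of the 20 uptake genes were higher and 0 lower, as were 13 and 1 of the 28 synthesis genes and 6 and 2 of the 22 regulators, where 22.3% of all genes were higher and 20.3% lower. Scaled to S. pombe reads 2, 1 and 0 were higher in these lists and 0 lower, where 114 of all 5696 genes were higher and 277 lower.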

How the data were processed

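Total or 4-thiouracil-labelled RNA of W303 yeast was sequenced with a spike-in of S. pombe cells, and per the labels and methods the authors quantified reads with Salmon against transcripts. The deposited values are estimated counts and TPM per transcript, the TPM being scaled by the authors to 1000000 over all transcripts of both yeasts. For the tests these counts were rounded to whole numbers, restricted to nuclear protein-coding genes of S. cerevisiae and passed through filterByExpr. They were scaled by TMM and fitted by the quasi-likelihood method of edgeR 4.0.16 in R 4.3.3 without a replicate block, with Benjamini-Hochberg adjustment over all genes. Steady-state libraries, labelled libraries at low GSH, labelled libraries at high GSH, and the new-mRNA libraries were fitted separately. Levels are TPM rescaled to 1000000 over the same genes. On simulated data 2-fold changes were recovered for 90.0% of changed genes in the 1 °C against 30 °C fit, and for 19.4% in the new-mRNA 5 °C fit, which is the less sensitive. Of 107 replicate pairs 0 were identical.

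The 37 members and the other gene lists (other amino acid synthesis, regulators, transport) were chosen with earlier results of these data known. Genes named in the text were GCN4, the 3 members called highest and lowest by fold change in each comparison, the paired genes and, chosen after their values were seen, other members given by value or by calls that single libraries changed. Alternatives were DESeq2 1.42.0 (size factors and test), no filter, other library sizes (for the other lists added after seeing the data), all transcripts, a replicate block and leaving out each library. Half-lives were fitted per replicate number through 48 h.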

Additional observations from a re-analysis of the deposited data

Results flagged for a closer look

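The change with labelled time at low GSH differed between 5 °C (48 h against 1.5 h) and 1 °C (48 h against 6 h) for 8 of the 37 genes, by the interaction test of edgeR. Of all genes tested, 16.2% had a higher and 13.3% a lower change at 5 °C, so such differences are not particular to these genes. The 5 °C change minus the 1 °C change was 0.95 for LEU1 and 0.94 for BAT2 on the log2 scale. It was -1.30 for HIS1, -1.14 for TRP4, -0.69 for HIS7, -0.61 for TRP3, -0.57 for ILV1 and -0.55 for LYS12. The ILV1 call was lost without any 1 of 7 of the 12 libraries (adjusted p = 0.065 to 0.117), and the LYS12 call without replicate 2 at 1 °C, 48 h (0.063), or replicate 3 at 5 °C, 48 h (0.056). The first labelled time was not the same at the 2 temperatures, and its part in these differences was not tested. With S. pombe reads as library size 0 of the 37 were called, where 266 of all 5770 genes were higher and 9 lower.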

How the results depend on the processing

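Under DESeq2, no filter, and all transcripts the counts stayed within 1.5 times, except 2 genes higher at 1 °C against 5 °C with the DESeq2 test and 2 with no filter. With summed mRNA reads as library size, 8 genes were higher at 1 °C against 30 °C (median -0.76), 8 were lower at 5 °C against 30 °C (median 0.50), 4 were higher at 1 °C against 5 °C (median -1.07) and 4 were higher in new mRNA at 1 °C (median -0.42). Over all genes, 3648, 1479 and 2909 of 5697 and 1956 of 5696 were called in the same directions. With S. pombe reads as library size the counts were 28 higher and 0 lower at 1 °C against 30 °C (median 0.92), 25 and 2 at 5 °C against 30 °C (1.14), 9 and 6 at 1 °C against 5 °C (-0.035), 6 and 0 in new mRNA at 1 °C (0.93) and 2 and 1 at 5 °C (0.15). With labelled time 28 were higher and 0 lower in the 1 °C low-GSH series (1.65), 36 and 0 in the 5 °C low-GSH series (2.04), 35 and 0 in the 1 °C high-GSH series (1.73), 36 and 0 in the 5 °C high-GSH series (2.33), and 0 and 0 in the difference between temperatures (0.58). Of all 5697 genes, 5335 were higher and 39 lower at 1 °C against 30 °C, 3411 and 356 at 5 °C against 30 °C, and 4924 and 73 at 1 °C against 5 °C. In new mRNA it was 3324 and 16 of 5696 at 1 °C and 114 and 277 at 5 °C. With labelled time it was 4704 and 8 (1 °C) and 5224 and 9 (5 °C) of 5770 at low GSH. At high GSH it was 5087 and 3 (1 °C) and 5538 and 6 (5 °C) of 5779. The median of the 37 for high against low GSH at 5 °C was 0.14. On that scale these genes changed sign: GCN4 to 0.67, 0.49 and 0.18 at 1 °C against 30 °C, 5 °C against 30 °C and 1 °C against 5 °C, to 0.027 and 0.065 with GSH at 1 and 5 °C and to 1.18 with time at 1 °C, low GSH; ARO9 to 0.10 and TRP4 to 0.22 at 1 °C against 30 °C. With time at low GSH, LEU3 turned to 0.59, LYS2 to 0.58 and LEU9 to 0.66 at 1 °C, and TRP4 to 0.31, LEU9 to 0.88 and HIS1 to 1.07 at 5 °C. With time at high GSH, LEU3 turned to 0.51, LYS14 to 0.56 and LYS2 to 0.64 at 1 °C, and TRP4 to 0.58, LEU9 to 0.95 and HIS1 to 1.26 at 5 °C. HIS7 turned to 0.028 in the difference. The cause was not tested.

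Leaving out 1 library at a time gave 3 to 4 higher and 31 to 32 lower at 1 °C against 30 °C (median -1.41 to -1.29), 15 to 19 and 13 to 17 at 5 °C against 30 °C (0.04 to 0.30), 1 and 29 to 31 at 1 °C against 5 °C (-1.42 to -1.30), 2 to 3 and 16 to 29 in new mRNA at 1 °C (-0.99 to -0.74), and 14 to 16 and 1 to 3 at 5 °C (0.40 to 0.63). With time it gave 5 to 14 and 6 to 12 at 1 °C (0.08 to 0.32) and 8 to 11 and 9 to 12 at 5 °C (-0.14 to 0.04) with low GSH, 13 to 17 and 3 to 6 at 1 °C (0.27 to 0.40) and 7 to 9 and 12 to 16 at 5 °C (-0.30 to -0.20) with high GSH, and 2 to 5 and 4 to 10 for the difference (-0.23 to 0.03). GSH calls stayed at 0, with medians of -0.04 to 0.07 at 1 °C and -0.02 to 0.03 at 5 °C. The GCN4 change with time at 1 °C, not called, ranged over -0.41 to 0.37 at low GSH, with the positive value without replicate 3 at 6 h, and over -0.0022 to 0.40 at high GSH, with the negative value without replicate 1 at 6 h. Half-life medians ranged over 8.82 to 12.6 h (1 °C) and 2.63 to 5.07 h (5 °C) at low GSH and 9.43 to 12.7 h and 5.47 to 13.6 h at high GSH. With the 96 h libraries included the low-GSH medians moved to 7.85 h (1 °C) and 8.10 h (5 °C), and that at 1 °C with high GSH to 7.69 h.

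The sources do not tie replicate numbers to shared cultures, and deviations of same-numbered libraries correlated at -0.157 to 0.279, with at least 1 pair at or under 0.1 in every comparison. Each same-numbered correlation was above the highest with another number in both GSH comparisons. The same held with time at 1 °C, high GSH, and in new mRNA at 5 °C. In the other comparisons it did not hold for every replicate. With the replicate block the counts were 4 higher and 32 lower, 16 and 13, and 1 and 31 in the 3 steady-state temperature comparisons and 0 for GSH. With time they were 15 higher and 11 lower (1 °C, low GSH), 13 and 13 (5 °C, low GSH), 18 and 6 (1 °C, high GSH), 10 and 17 (5 °C, high GSH), and 3 and 9 for the difference. In new mRNA they were 2 and 20 (1 °C) and 16 and 2 (5 °C). In the same order, all genes gave 2077 and 2060, 2067 and 2140, and 1646 and 1635 of 5697 in steady-state mRNA. With time all genes gave 1617 and 1608, and 1954 and 1905 of 5770, then 1693 and 1620, and 1939 and 1890 of 5779. For the difference it was 1092 and 918 of 5770, and in new mRNA 1128 and 1026, and 1316 and 1164 of 5696. GCN4 with time at 5 °C, low GSH, was 0.54 with the block (adjusted p = 0.022). Depth was at least 7791032 reads in every library compared. The limit is 3 libraries per group, and the wide spread of new mRNA at 30 °C.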
